A study of Mus musculus with 4 samples.

Results

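The miR-15 and miR-16 family was described in small RNA libraries of mouse sperm through 6 hairpin names of the files, mmu-mir-15a, mmu-mir-15b, mmu-mir-16, mmu-mir-195a, mmu-mir-322 and mmu-mir-497a, written below without the species prefix. A read was counted for the family when it was at least 18 nt long and its annotation held only these names, with the copy number of a hairpin dropped, so that reads of both miR-16 genes carry 1 name. The rule used no measured level. It kept 45 distinct sequences of 2783 annotated to miRNA and 6 hairpin names of 389, and each of the 6 had reads in every library.

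The 4 libraries came from C57BL mice, 2 from controls and 2 from the group labelled Mdd. Control mice were left alone apart from routine care. Mdd mice met a stressor that changed at random from day to day, such as tube restraint, a tilted, wet or empty cage, noise, flashing light, isolation or a disturbed light cycle, and the study asked which small RNAs of sperm are altered in this depressive-like model. The protocol names sperm as the source of RNA and a size range of 18 to 40 nt, while the tissue and cell type fields name testis and testicular cells. The sources used here do not give the age of the mice or say whether a library held 1 animal or a pool. The replicates of a group may thus be technical, and p-values cover the spread between libraries and nothing wider.

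miRNAs are short RNAs that guide Argonaute proteins to messenger RNAs, mostly through the seed near the 5′ end. Members of the miR-15 and miR-16 family share the seed AGCAGCA and are known as inhibitors of cell cycle and survival genes, among them the D-type cyclins and BCL2. They are made in many tissues, including blood cells and muscle, and are transcribed as neighbours in pairs.

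The mature 5p sequences, from RefSeq (GRCm38.p6), are shown to compare the members, with the seed at bases 2 to 8 in capitals. All 6 carry the same seed and part ways after it.
miR-15a-5p: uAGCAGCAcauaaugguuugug
miR-15b-5p: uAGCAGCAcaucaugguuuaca
miR-16-5p: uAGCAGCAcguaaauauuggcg
miR-195a-5p: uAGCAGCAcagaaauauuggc
miR-322-5p: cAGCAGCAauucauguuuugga
miR-497a-5p: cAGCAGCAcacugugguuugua
miR-16 and miR-195a had the same base at 19 of 21 positions, and miR-15a and miR-15b at 18 of 22. miR-16 and miR-497a shared 11 of 22 positions. The first base separated miR-322 and miR-497a, which begin with c, from the other 4, which begin with u.

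The family lies at 4 sites in GRCm38.p6. miR-15a-5p is on chromosome 14, minus strand (chr14:61632075-61632096), in an intron of the non-coding gene Dleu2, beside the first miR-16 gene (5p at chr14:61631936-61631957), whose hairpin overlaps an exon of at least 1 Dleu2 transcript. miR-15b-5p (chr3:69009775-69009796) and the second miR-16 gene (chr3:69009918-69009939) lie on the plus strand in an intron of Smc4, which encodes a condensin subunit, with 66 bases between the hairpins. miR-497a-5p (chr11:70234730-70234751) and miR-195a-5p (chr11:70235062-70235082) are on the plus strand, 241 bases between hairpins. miR-322-5p (chrX:53054306-53054327) is on the minus strand of the X chromosome, 200 bases from miR-503. The last 2 sites lie outside other genes in the GENCODE annotation used here.

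Libraries held 12845403 to 24112532 reads, of which 9706895 to 23806805 were 18 nt or longer and 71902 to 263748 of those were miRNA reads. Values follow in the order control replicates 1 and 2, then Mdd replicates 1 and 2. CPM stands for counts per 1000000 miRNA reads of 18 nt or longer unless stated otherwise, and since each read is a whole small RNA no length scaling was needed. A genome-matched sequence most often had 7, 10, 38 and 8 copies, and hence reads cannot be counted as separate molecules. Reads under 18 nt made up 24.4% and 26.95% of control libraries and 1.18% and 1.27% of Mdd libraries. Control replicate 2 stood apart: striated muscle miRNAs (miR-1a, miR-133a, miR-133b, miR-206) summed to 65737 CPM there and to 3880, 1488 and 989 CPM in control replicate 1 and the Mdd libraries. The germ cell miRNAs miR-34b, miR-34c and miR-449a summed to 223610, 103129, 257239 and 211465 CPM, while miR-449b and miR-449c, also on that list, had 0 reads. These germ cell miRNAs did not move together. miR-34b was lowest in control replicate 2 (177672, 47056, 205396 and 147898 CPM). miR-34c was highest in Mdd replicate 2 and about equally low in control replicate 2 and Mdd replicate 1 (11168, 8137, 8088 and 30730 CPM). miR-449a was highest in control replicate 2 (34770, 47936, 43755 and 32837 CPM).

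Family members together took 1.35% and 2.55% of miRNA reads in controls and 0.859% and 1.33% in Mdd. Their reads numbered 971, 6734, 1709 and 1250. With reads as the unit, 95% Wilson intervals were 1.27% to 1.44%, 2.49% to 2.61%, 0.819% to 0.901% and 1.26% to 1.40%. After division by the usual copies per sequence they widened to 1.15% to 1.60%, 2.37% to 2.75%, 0.643% to 1.15% and 1.14% to 1.55%. All such intervals cover counting error only. Control replicate 1 and Mdd replicate 2 could not be told apart, and control replicate 2 was the library far above the others.

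miR-16 was the main member, with 610, 4915, 1480 and 812 reads. Its control levels were 8484 and 18635 CPM, its Mdd levels 7439 and 8637 CPM. Control replicate 1 and both Mdd libraries lay close together, control replicate 2 lay far above them, and the groups overlapped. miR-16 ranked 23 of 389 labels by mean CPM and supplied 62.8%, 73.0%, 86.6% and 65.0% of family reads.

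miR-15b, the partner of the chromosome 3 miR-16 gene, had 263, 930, 90 and 265 reads, which gave control levels of 3658 and 3526 CPM and Mdd levels of 452 and 2819 CPM. The controls were alike (3592 ± 93.1 CPM, SD, n = 2), Mdd replicate 2 was somewhat below them and Mdd replicate 1 far below, so the groups did not overlap. The 90 reads of Mdd replicate 1 fell under 114, which is the floor of 3 counts multiplied by the usual 38 copies there. miR-15a of chromosome 14 had 32, 236, 115 and 53 reads, which gave control levels of 445 and 895 CPM against Mdd levels of 578 and 564 CPM. Both Mdd values lay between the controls.

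The reads of miR-16, with both its genes pooled, per read of miR-15a were 19.1, 20.8, 12.9 and 15.3. Divided by the usual copies, miR-15a had 4.6, 23.6, 3.0 and 6.6 counts, so this narrow range rests on few counts. The reads of miR-16 per read of miR-15b were 2.32, 5.28, 16.4 and 3.06. Mdd replicate 1, where miR-15b lay under the floor multiplied by copies, stood apart. miR-15b exceeded miR-15a by 8.22, 3.94 and 5.0 times in 3 libraries, and in Mdd replicate 1 its reads were 0.783 times those of miR-15a.

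The chromosome 11 pair did not move together across libraries. miR-497a had 40, 260, 4 and 87 reads (control levels 556 and 986 CPM, Mdd levels 20.1 and 925 CPM). miR-195a had 1, 213, 19 and 14 reads (control levels 13.9 and 808 CPM, Mdd levels 95.5 and 149 CPM). Each of the 2 was lowest in a different library, miR-497a in Mdd replicate 1 and miR-195a in control replicate 1, and both overlapped between groups. Of these 8 read counts, the 1 read of control replicate 1 and the 4, 19 and 14 of the Mdd libraries lie below the floor multiplied by the usual copies, which is 21, 30, 114 and 24 reads.

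X-linked miR-322 had 25, 180, 1 and 19 reads, for control levels of 348 and 682 CPM and Mdd levels of 5.03 and 202 CPM. Both controls lay above both Mdd libraries. Both Mdd counts are below the floor so multiplied.

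By mean over the 4 libraries the order was miR-16 (10799 CPM), miR-15b (2614), miR-497a (622), miR-15a (620), miR-322 (309) and miR-195a (266). Values of miR-16 lay above those of every other member in all libraries. miR-15b and the 4 members below it overlapped in range, and the ranges of those 4 overlapped one another, so their order is not firm.

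**Figure D1:**
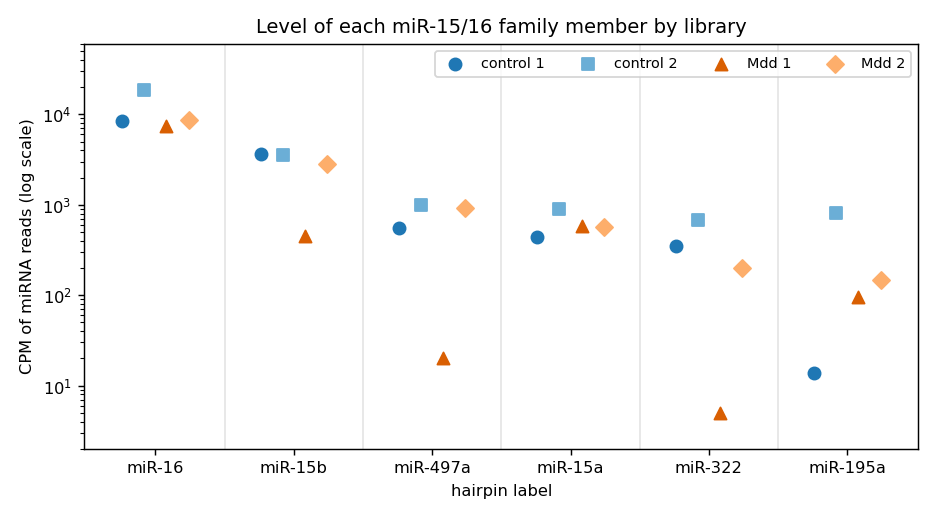
Level of each family member in CPM of miRNA reads (log scale), 1 symbol per library, members ordered by mean. miR-16 lay between 7439 and 18635 CPM, and miR-322 and miR-497a were lowest in Mdd replicate 1, at 5.03 and 20.1 CPM. Both values are under the floor multiplied by copies, 573 CPM in that library.

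No member differed between Mdd and control beyond the spread of the libraries. All 236 miRNA labels with enough reads, the 6 members among them, were fitted with edgeR's quasi-likelihood test and Benjamini-Hochberg adjustment over all of them. At an adjusted p under 0.05 edgeR called 0 members, and 0.0% of all labels. At an unadjusted p under 0.05 it found 0 members and 11 labels (4.66%). DESeq2 called 0 members and 7 labels (2.97%), of which 5 were lower in Mdd (2.12%) and 2 higher (0.847%).

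The fold changes of the 6 were all negative, where 52.1% of all labels were. Their median log2 fold change (Mdd minus control) was -0.95, beside -0.04 for all labels tested. Members of a seed family lie in shared transcripts and libraries, so this is a description and has no test of its own. miR-322 had -2.39 (SE 1.90) and miR-195a -1.84 (SE 1.96). miR-15b had -1.14 (SE 0.88, adjusted p = 0.952 with edgeR, as for miR-322), lower in 2 of 2 Mdd libraries than in either control. miR-497a had -0.77 (SE 1.56) and miR-16 -0.76 (SE 0.70). miR-15a had -0.23 (SE 1.19), and with the other 3 an adjusted p of 0.992. The standard errors of 4 of these 6 were above 1 log2 unit.

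Groups did not overlap in CPM for 2 of 6 members, miR-15b and miR-322, both lower in Mdd, where 21.6% of all labels tested lay apart in that direction. For 0 members did both Mdd libraries lie above both controls, against 16.5% of labels. Control replicate 2 was the highest library for 5 of 6 members, all but miR-15b, against 30.9% of labels. Mdd replicate 1 was the lowest for 4 of 6, against 33.9%. Without control replicate 2 the log2 fold changes of miR-16, miR-15a and miR-195a became 0.055, 0.50 and 3.16, and the median of the 6 became -0.05. The value of miR-195a then had a standard error of 6.45 and rested on 1 read in control replicate 1. Without Mdd replicate 1 that of miR-497a became 0.18, that of miR-15b -0.39 and that of miR-322 -1.44. Without Mdd replicate 2, miR-322, miR-497a and miR-15b had -6.31, -5.02 and -2.79. These 3 then rested on 1, 4 and 90 reads in Mdd replicate 1. All are under the floor multiplied by copies, 114 reads in that library, so the size of these differences is not firm. A lone library in a group was assumed there to vary like the other group.

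**Figure D2:**
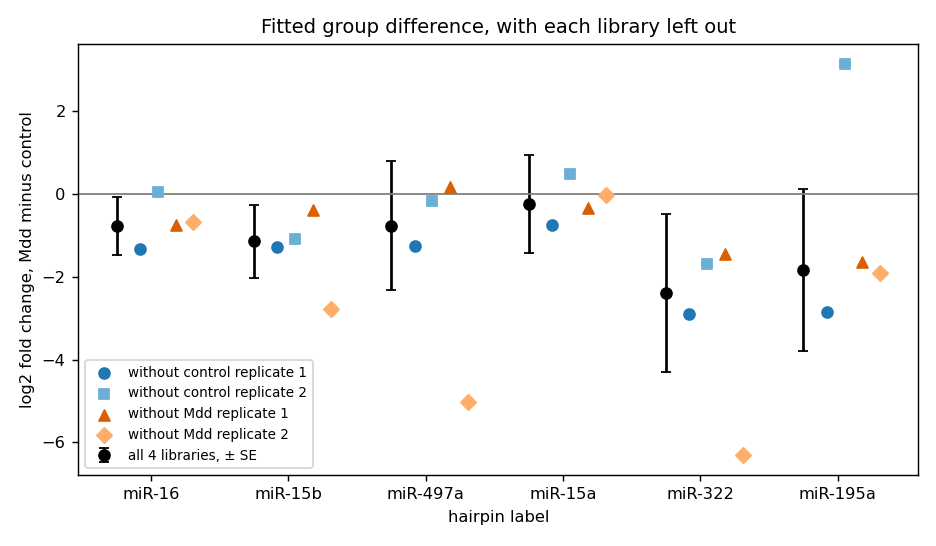
Fitted log2 fold change of each member, Mdd minus control. Black points with bars are the fit to all 4 libraries with its standard error, and coloured symbols leave out 1 library each. Leaving out control replicate 2 moved miR-16, miR-15a and miR-195a above 0, and leaving out Mdd replicate 2 lowered miR-322 to -6.31. In these fits miR-195a rested on 1 control read and miR-322 on 1 Mdd read.

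The summed family came to 13504 and 25532 CPM for the controls, and to 8590 and 13296 CPM for Mdd (19518 ± 8505 against 10943 ± 3328, SD, n = 2 each). The exact two-sided permutation p was 0.333, the smallest that 2 against 2 samples allow. With reads of 15 to 17 nt included the sums were 12753, 24102, 8775 and 13368 CPM, so that the groups overlapped (exact permutation p = 0.667). Those reads also raised the total that CPM refers to, and more so in controls. Total miRNA reads rose from 71902 to 80923 and from 263748 to 286864 in controls. In Mdd they rose from 198947 to 203531 and from 94011 to 96048. The log2 ratio of group means was -0.83, and -0.30 without control replicate 2. As CPM of all reads of 18 nt or longer the sums were 100.03, 401.7, 72.0 and 52.5. On that scale the median log2 fold change over all labels was itself -1.10, with -2.41 for the members. Since the libraries are bulk samples, fewer cells carrying a miRNA and less of it per cell cannot be told apart.

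Family reads came almost wholly from the 5p arm. The 3p arm gave 22 and 21 reads for the controls but 0 in both Mdd libraries, so the 5p share was 97.7%, 99.7%, 100% and 100% (exact permutation p = 0.333; adjusted p = 1 over 21 comparisons of arms, ends and lengths). The zeros allow a 3p share of up to 0.176% and 0.240% counting reads, or 6.67% and 1.92% with the usual copies. Any 3p reads at all were seen for 3 members. miR-15b-3p had 22 reads of 1 sequence, all in control replicate 1. miR-195a-3p had 20 reads of 3 sequences and miR-322-3p 1 read, all in control replicate 2. None of the 3p arms of miR-15a, miR-497a or either miR-16 gene was read.

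Nearly all 5p reads began at the annotated first base and so kept the shared seed: 100%, 98.7%, 100% and 98.4%. The exceptions were 10 sequences, of which the 4 with most reads are shown because they move the seed. The other 6 had 1 to 3 reads each over the 4 libraries. In these lines AGCAGCA is in capitals where it is whole.
miR-16, start 2 bases late: gcagcacgtaaatattggcg
miR-497a, start 2 bases late: gcagcacactgtggtttgta
miR-497a, start 1 base late: AGCAGCAcactgtggtttgtac
miR-322, start 1 base early: gcAGCAGCAattcatgttttg
The late miR-16 form had 24 reads in control replicate 2 and 18 in Mdd replicate 2, and 0 elsewhere. The 2 miR-497a forms had 27 and 20 reads and the miR-322 form 9 reads, all in control replicate 2. Each of these counts is under the floor multiplied by copies, 30 reads in control replicate 2 and 24 in Mdd replicate 2. In control replicate 2, 49 of 260 miR-497a reads did not start at the annotated base, and in the other 3 libraries 0 of 40, 0 of 4 and 0 of 87. With the usual copies these zeros allow a share of up to 52.5%, 100% and 27.6%, so a difference from control replicate 2 is not shown.

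The 3′ ends varied more, and differently for each member. miR-16 was mostly 22 or 23 nt long, and 49.2%, 39.5%, 62.6% and 43.0% of its reads ran past the annotated end (exact permutation p = 0.667). None of the miR-15b reads counted here did, and 66.8%, 82.4%, 72.2% and 75.8% of its 5p reads stopped short of it. Forms with other names in the files, such as miR-15b with A after 22 bases (below), are outside these shares. The counted forms with most reads are these.
miR-16, 22 nt: tAGCAGCAcgtaaatattggcg
miR-16, 23 nt: tAGCAGCAcgtaaatattggcgt
miR-15b, 21 nt: tAGCAGCAcatcatggtttac
miR-15b, 22 nt: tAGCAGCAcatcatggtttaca
The 22 nt form of miR-16 had 257, 2401, 469 and 353 reads and the 23 nt form 223, 1570, 781 and 214 reads. Only in Mdd replicate 1 did the longer form lead. The 21 nt form of miR-15b had 74, 469, 45 and 112 reads and the 22 nt form 80, 164, 25 and 64. Among all 5p reads of the family the mean length was 21.7, 21.8, 22.3 and 21.7 nt (exact permutation p = 0.667).

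The last base of 24 nt forms differs between the miR-16 genes. The form ending in gtt matches the chromosome 14 gene and had 76, 370, 142 and 131 reads. The form ending in gta matches the chromosome 3 gene and had 1, 1, 4 and 2 reads. In every library the first exceeded the second. A u added to the 23 nt form of either gene would give the same letters as the first form, so these reads do not settle the share of the 2 genes.

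miR-15a was read mostly at 18 and 21 nt, and in Mdd replicate 2 also at its annotated length of 22 nt. The balance of these forms changed from library to library.
miR-15a, 18 nt: tAGCAGCAcataatggtt
miR-15a, 21 nt: tAGCAGCAcataatggtttgt
miR-15a, 22 nt: tAGCAGCAcataatggtttgtg
The 18 nt form had 25, 49, 106 and 15 reads, or 78.1%, 20.8%, 92.2% and 28.3% of miR-15a reads. The 21 nt form had 7, 167, 6 and 21 reads. The 22 nt form had 0, 2, 0 and 17 reads, 32.1% of miR-15a reads in Mdd replicate 2. In control replicate 1 and Mdd replicate 1 the 18 nt form had most reads, and in control replicate 2 the 21 nt form did. In Mdd replicate 2 the 15, 21 and 17 reads of the 3 forms are all under the floor multiplied by copies, 24 reads there. Hence none of them can be said to lead in that library. The shares of the 18 nt form overlapped between groups. In Mdd replicate 1 nearly all of the miR-15a level rests on this 1 sequence of 106 reads, under the floor of 114 multiplied by copies.

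miR-322 was read as an 18 nt form almost throughout, with 25, 151, 1 and 19 reads, and its annotated 22 nt form had 0 reads in all 4 libraries.
miR-322-5p, last 4 bases in capitals: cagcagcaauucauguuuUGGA
miR-322, 18 nt: cAGCAGCAattcatgttt
The 18 nt form stops directly before the 4 last bases. Sequences that end in TGG or TGGA were nearly missing from every file, with all RNA classes pooled. Of the 64 possible 3-base ends TGG was the rarest in each library, with 207, 281, 170 and 272 sequences of 18 nt or longer, beside medians of 4942.5 to 7079.5 sequences for the 64 ends. TGGA closed 33, 57, 43 and 41 sequences, while the other 3 ends in GGA closed 1233 to 3684 each. TGG before the last 3 bases was common, in 45.1% to 46.3% of sequences. The forms of miR-16 and miR-195a that would end in TGG, at 20 nt, also had 0 reads in all libraries. miR-16 instead had a 17 nt form that stops before it, with 28, 75, 76 and 34 reads, although Mdd libraries held few reads of that length. The part of these ends in the lengths and in the level of miR-322 was not tested. miR-322 reads cut below 18 nt would not be counted here, and 1 read of 15 to 17 nt carried its name.

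Just outside the length limit stood 17 nt forms of miR-16 (above), of miR-15b (44 reads in control replicate 2), of miR-15a (8 reads of the form with the annotated start, in control replicate 1) and of miR-195a (14 and 1 reads in control replicate 2 and Mdd replicate 1). Just inside it, 18 nt forms with the annotated start had 274 reads for miR-15b, 196 for miR-322, 195 for miR-15a, 19 for miR-16, 10 for miR-497a and 1 for miR-195a over the 4 libraries. In all, 61, 180, 77 and 34 family reads were 15 to 17 nt long.

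**Figure D3:**
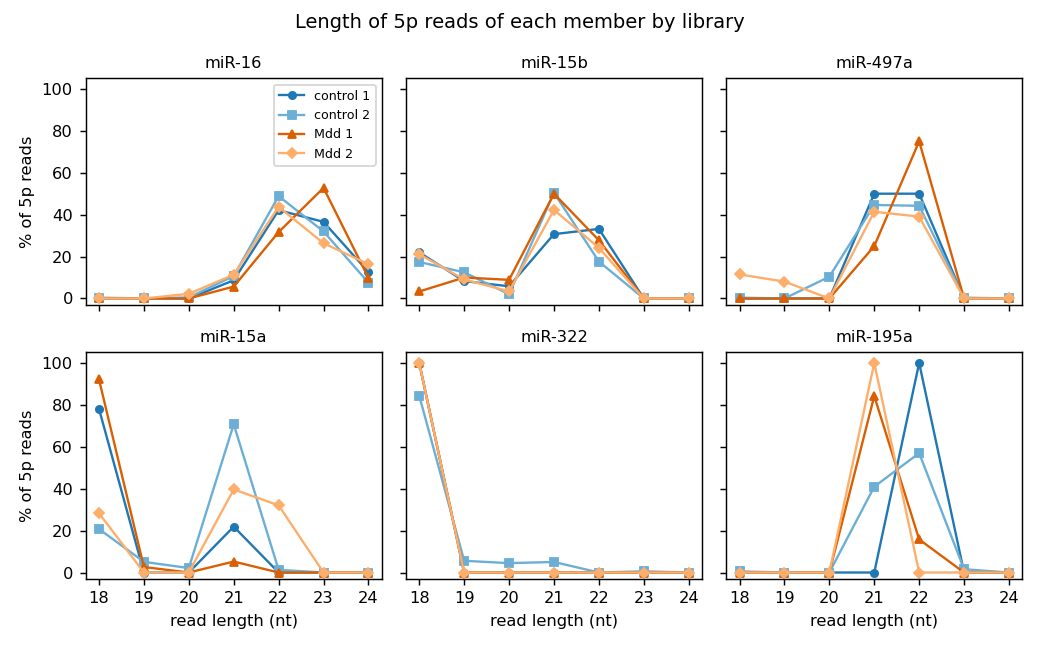
Length of 5p reads of each member, as a share of that member's 5p reads in each library. miR-16 peaked at 22 or 23 nt and miR-322 at 18 nt, while miR-15a divided between 18 and 21 nt. In Mdd replicate 2, 32.1% of miR-15a reads were at 22 nt, which rests on 17 reads, under the floor multiplied by copies. Lines of miR-195a in control replicate 1 and miR-322 in Mdd replicate 1 rest on 1 read each.

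Forms that follow a member for at least 18 bases and then leave the genome sequence in their last 1 to 3 bases carried other names in the files. There were 52 such sequences with 615 reads in all, and the files annotated 49 of them, with 606 reads, to piRNA and 3 to nothing. They are outside the counts above. Counting them, they made up 5.85%, 4.79%, 5.32% and 8.89% of 5p forms (5.32% ± 0.749 against 7.11% ± 2.53, SD, n = 2 each, exact permutation p = 0.667). Ends of U alone had 329 reads and ends of A alone 110. The 7 with most reads, with the seed and the added end in capitals, were these.
miR-16, U after 24 bases: tAGCAGCAcgtaaatattggcgttT
miR-15b, U after 21 bases: tAGCAGCAcatcatggtttacT
miR-15b, A after 22 bases: tAGCAGCAcatcatggtttacaA
miR-15a, U after 21 bases: tAGCAGCAcataatggtttgtT
miR-15a, U after 22 bases: tAGCAGCAcataatggtttgtgT
miR-16, AU after 20 bases: tAGCAGCAcgtaaatattggAT
miR-16, A after 21 bases: tAGCAGCAcgtaaatattggcA
The first had 6, 58, 4 and 39 reads. miR-15b with U after 21 bases had 20, 64, 2 and 0 reads, and over all its forms with U alone 24, 64, 3 and 17 reads. miR-15b with A after 22 bases had 13, 7, 1 and 25 reads. miR-16 with A after 21 bases had 0, 27, 3 and 1 reads, nearly all in control replicate 2. miR-15a with U had 0, 23, 1 and 8 reads after 21 bases and 1, 4, 0 and 23 after its full length. In Mdd replicate 2 forms with such ends were 36.9% of miR-15a 5p forms (Wilson interval 27.4% to 47.6%), against 3.03%, 12.3% and 0.862% in the other libraries. That interval takes reads as the unit and is too narrow. The 31 such reads were of 2 sequences, each under the floor multiplied by copies, 24 reads in that library. The miR-16 form with AU had 73 reads in Mdd replicate 1 and 0 elsewhere, and it made up most of the 90 such miR-16 reads there. Those 73 reads are also under the floor multiplied by copies, 114 reads in that library. An added base cannot be told apart from a read error at the end.

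Other miRNAs of the same locus or of a like seed were read little. Of 5 listed cluster partners of miR-322, 4 had reads, 1 was tested and 0 passed: miR-450a had 10, 32, 0 and 7 reads (log2 fold change -1.85, SE 2.54). miR-542 had 0, 58, 2 and 0 reads and miR-351 0, 5, 0 and 0. miR-503, which neighbours miR-322, had 1, 14, 0 and 0 reads. Its seed differs from the family's in the last base, and miR-103 and miR-107 carry a seed shifted by 1 base, as these lines show.
miR-503-5p: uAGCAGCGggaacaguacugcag
miR-103-3p: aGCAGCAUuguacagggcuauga
miR-107-3p: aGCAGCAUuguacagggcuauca
Of the 5 miRNAs listed for such seeds, 3 names had reads (miR-107 only in 3 reads shared with miR-103), 1 was tested and 0 passed. miR-103 had 32, 106, 1 and 34 reads, or 445, 402, 5.03 and 362 CPM (log2 fold change -1.23, SE 1.90). Like miR-497a and miR-322, miR-103 had few reads in Mdd replicate 1. The floor multiplied by copies is 573 CPM in that library, above the level of miR-103 in every other library. A lower level of miR-103 in Mdd replicate 1 is thus not shown.

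By distance between profiles over the 4 libraries (log2 of CPM plus 2, centred on each label's mean), the labels most like the family sum among 213 of at least 100 CPM were miR-30d (distance 0.12), miR-29c (0.15), miR-22 (0.25), miR-98 (0.35) and miR-29a (0.50), where the median distance was 2.21. miR-22 was also the label nearest to miR-16 (0.20), at 23310, 42889, 17472 and 21583 CPM. miR-30b was nearest to miR-15b (0.62) and miR-18a to miR-15a (0.30). For miR-497a it was the X-linked testis miRNA miR-743b (0.11), with 167, 307, 5.03 and 308 CPM. miR-181b was nearest to miR-322 (0.56). In Mdd replicate 1 miR-497a had 4 reads and miR-322 had 1, under the floor multiplied by copies, 114 reads. miR-743b and miR-181b were both at 5.03 CPM in that library, so its part in these distances is not firm. For miR-195a the nearest, miR-378a, was 1.81 away.

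Marker miRNAs of other cell types moved between the libraries too, and edgeR called 0 labels of each list. Of the striated muscle list all 4 names had reads, and its 4 tested labels had negative fold changes, while the label of miR-133b alone was at 0 in both Mdd libraries. The smooth muscle, stromal and endothelial list, with all 6 names read and 4 of 6 tested labels negative, summed to 62905 and 124505 CPM for the controls, against 56693 and 73938 for Mdd. Control replicate 2 was highest in both lists, as for 5 of the 6 family members.

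The leukocyte list (miR-142a, miR-150, miR-223) summed to 654 and 830 CPM for the controls, against 357 and 223 CPM for Mdd. All 3 of its names had reads and negative fold changes, and miR-150 was at 0 in Mdd replicate 2. The erythroid list was lowest in control replicate 2, at 5718 CPM against 46313, 59564 and 50111 in the others. Its miR-451a made up most of each sum, both tested labels had positive fold changes, and miR-144 was at 0 in both Mdd libraries. Epithelial miRNAs, all 5 read and 3 of 5 negative, summed to 8247, 17293, 7354 and 17115 CPM. Neural ones, all 3 read and 2 of 3 negative, summed to 4409, 2373, 10349 and 2936 CPM. The high sum of Mdd replicate 1 came from miR-124 (890, 603, 9138 and 1479 CPM). miR-9 was lowest in that library (1655, 645, 60.3 and 372 CPM), and miR-128 was highest in control replicate 1. The part of these cells in the family's levels was not tested.

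**Figure D4:**
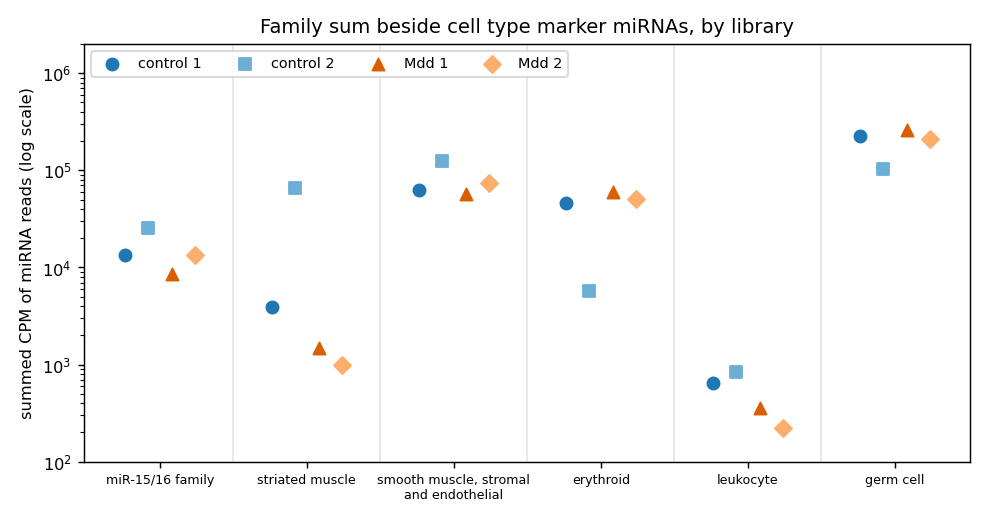
Summed CPM of miRNA reads (log scale) of the family and of marker miRNAs of other cells, 1 symbol per library. Control replicate 2 was highest for the family (25532 CPM) and for striated muscle (65737 CPM) and lowest for erythroid miRNAs (5718 CPM).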

How the data were processed

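The deposited files give raw read counts: per the file headers, the authors listed each distinct sequence of 15 to 45 nt with its reads, its length, a mark for a genome match and an annotation. Per the submitters' processing notes, DESeq2 and mm9 were used, with no version. The sources used here do not name the aligner, the trimming or the annotation database. Here the files were joined by sequence, the first library with an annotation for a sequence supplied it, and reads of 18 nt or longer were summed per hairpin name without copy number. The test of counts was that of edgeR 4.0.16 (quasi-likelihood, TMM, filterByExpr, two-sided) in R 4.3.3, threshold 0.05, and the standard error is the log2 fold change over the root of F. DESeq2 1.42.0 was an alternative. Shares and sums had an exact permutation test over samples (Python 3.11.15, pandas 2.3.3). Reads were placed on RefSeq hairpins or mature sequences by exact match. Where a share is of 1 library its interval is Wilson's, at 95%. The count test was tested on simulated data.

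Members, lists and tests were chosen with earlier results of these data known. Named were all members, up to 5 sequences of each, the listed neighbours, and the 5 labels of nearest profile to the family sum and the 1 nearest to each member, of at least 100 CPM. Forms with added ends, the rarer 24 nt form and forms under 18 nt were chosen after their values were seen. Alternatives were RLE scaling, library size only, the size of all reads, DESeq2, other filters, the replicate number as a block, all lengths, annotation as deposited, genome-matched sequences, distinct sequences and each sample left out. Division by the usual copies per sequence was chosen after seeing the data. That number is the peak, beyond the first minimum, of the smoothed histogram of copies over genome-matched sequences.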

Additional observations from a re-analysis of the deposited data

How the results depend on the processing

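With 2 libraries a group, the spread of each group rests on 1 difference, and counted in usual copies the Mdd values of miR-322 and miR-195a, and those of miR-15b and miR-497a in Mdd replicate 1, lie under the floor of 3. Under each of the 15 alternatives run, 0 members passed; with reads divided by the usual copies, 3 of 6 could be tested. The members' fold changes kept a negative sign except, without control replicate 2, those of miR-15a, miR-16 and miR-195a and, without Mdd replicate 1, that of miR-497a. With 1 library left out the 4 ranged from -0.75 to 0.50, from -1.32 to 0.055, from -2.84 to 3.16 and from -5.02 to 0.18 in that order. The 3.16 of miR-195a rested on 1 control read and the -5.02 of miR-497a on 4 Mdd reads. Over all miRNAs, where edgeR called 0 labels, 5 passed with the library size of all reads, 7 with DESeq2, 6 without a filter and 6 at a mean of at least 10 CPM, 1 with all lengths and 4 after division by the usual copies. Leaving out 1 library gave 0 to 16, with 7 and 0 without control replicates 1 and 2 and 5 and 16 without Mdd replicates 1 and 2. As a replicate block, the number gave 4 calls; replicates of the same number did not deviate together (correlation -0.03 over 233 labels) and nothing in the labels pairs them. The family sum kept its sign, from -2.01 on the scale of all reads to -0.30 without control replicate 2. Its difference was within -0.73 to -0.85 for the alternatives of length, annotation, genome match and copies. For the share of 5p reads at the annotated start, the difference of -0.16 percentage points became 8.40 with each sequence counted once and ranged from -0.96 to 0.64 with 1 library left out (0.48 without control replicate 1). For reads past the annotated end, 9.84 points became -3.71 with each sequence counted once and -3.41 without Mdd replicate 1, within -3.41 to 23.1 with 1 library left out. The cause was not tested. Keeping only genome-matched sequences, or only sequences placed on an arm, could not change the shares, because neither setting removed any member sequence.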
